A study of Homo sapiens with 4 samples.

Results

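Inflammasomes are protein platforms that turn the sensing of microbes or cell damage into the release of IL-1 cytokines. A sensor (NLRP3, NLRP1, NLRC4, AIM2, or pyrin, the product of MEFV) recruits caspase-1 (CASP1), in most cases through the adaptor ASC (PYCARD), and caspase-1 then cleaves the inactive precursors of IL-1β (IL1B) and IL-18 (IL18) and opens gasdermin D pores. Caspase-4 (CASP4) binds bacterial lipopolysaccharide in the cytosol and cleaves gasdermin D directly. Monocytes are a main source of IL-1β, and in them NLRP3 and IL1B are commonly induced by a priming signal through Toll-like receptors.

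The transcripts of these 10 genes (NLRP3, NLRP1, NLRC4, AIM2, MEFV, PYCARD, CASP1, CASP4, IL1B and IL18), selected by symbol, were followed in RNA sequencing of 4 human acute myeloid leukemia lines, and all 10 were found among the 21865 symbols of the tables. The lines were THP-1 and MonoMac-1, which are monocytic and carry the MLL-AF9 fusion, and HL60 (myeloblastic to promyelocytic) and KG1a (immature, CD34-expressing), which do not; these lineages and the fusion are general knowledge of the lines and are not given by the labels. All lines were grown in the same serum-containing medium, no treatment is named for any of them, and each gave 1 library, so no level has a replicate check. The THP-1 sample is titled "Thp1_tr", a suffix that the labels leave unexplained, and any treatment it may stand for is unknown. Levels are the deposited RPKM values, which scale each transcript signal by gene length and library total; 59.3% of all symbols reached 1 RPKM in some line and are called measured, and of the 10 genes 9 did (AIM2 did not).

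Sequenced bases on genes ranged between 6.04 gigabases in THP-1 and 13.6 in MonoMac-1. Intervals given below are 95% counting intervals (exact Poisson for a level, exact binomial for a ratio) on fragment equivalents of 200 bases. They cover counting error only and not the variation between cultures. The labelled lines were set against lineage markers. The 6 monocyte markers summed to 948 (THP-1) and 5246 (MonoMac-1) RPKM, against 17.6 (HL60) and 2.12 (KG1a). Lysozyme (LYZ) made up much of these sums, with 510 (THP-1) and 4837 (MonoMac-1) RPKM, against 12.0 (HL60) and 1.13 (KG1a); the medians of the 6 markers were 100.6 (THP-1) and 92.2 (MonoMac-1) RPKM, against 0.596 (HL60) and 0.184 (KG1a). CSF1R was 31.1 RPKM in THP-1 but 2.31 in MonoMac-1, and CD14 reached only 1.28 (THP-1) and 4.13 (MonoMac-1) RPKM. Of 4 granulocyte markers, MPO, the myeloperoxidase of granules, was highest in HL60 (4610 RPKM), but the other 3 were higher in both monocytic lines. ELANE, neutrophil elastase, had levels of 1042 (THP-1) and 1313 (MonoMac-1) RPKM, against 76.6 (HL60) and 0.0355 (KG1a). CD34, the progenitor antigen, was highest in KG1a (494 RPKM). Of 11 markers of other cell types 4 reached 1 RPKM in some line, among them the T cell genes CD3E and CD3D at 14.1 and 10.6 RPKM in KG1a. The list of 11 summed to 19.3 RPKM (THP-1), 40.4 (MonoMac-1), 10.5 (HL60) and 24.9 (KG1a), with 3, 0, 2 and 2 of them at 0 in the same order of lines. In bulk RNA, fewer cells that express a gene and less RNA per cell cannot be told apart.

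Promoters of 4 genes are shown because these genes carry the main contrasts: NLRP3 and MEFV separated the monocytic lines from the others, PYCARD was scarce in KG1a alone, and CASP4 was most abundant there. Each is the RefSeq sequence from 250 bases before to 50 after the gene's start (GRCh38.p14, a later build than the hg19 of the deposited tables), written 5′ to 3′ on the gene's own strand with CG dinucleotides in capitals.
NLRP3 (chr1:247415923-247416222, plus strand): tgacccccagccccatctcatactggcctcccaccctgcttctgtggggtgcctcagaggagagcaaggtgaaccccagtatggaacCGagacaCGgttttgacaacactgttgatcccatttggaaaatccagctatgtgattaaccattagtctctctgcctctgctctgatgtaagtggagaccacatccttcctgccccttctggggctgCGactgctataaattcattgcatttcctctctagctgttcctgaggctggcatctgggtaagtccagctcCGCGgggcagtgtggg
MEFV (chr16:3256584-3256883, minus strand): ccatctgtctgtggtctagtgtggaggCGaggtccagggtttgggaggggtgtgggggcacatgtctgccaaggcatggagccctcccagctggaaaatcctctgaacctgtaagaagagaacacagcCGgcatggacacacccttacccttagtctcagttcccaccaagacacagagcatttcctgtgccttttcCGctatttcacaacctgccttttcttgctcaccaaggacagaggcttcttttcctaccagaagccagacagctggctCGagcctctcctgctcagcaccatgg
PYCARD (chr16:31202711-31203010, minus strand): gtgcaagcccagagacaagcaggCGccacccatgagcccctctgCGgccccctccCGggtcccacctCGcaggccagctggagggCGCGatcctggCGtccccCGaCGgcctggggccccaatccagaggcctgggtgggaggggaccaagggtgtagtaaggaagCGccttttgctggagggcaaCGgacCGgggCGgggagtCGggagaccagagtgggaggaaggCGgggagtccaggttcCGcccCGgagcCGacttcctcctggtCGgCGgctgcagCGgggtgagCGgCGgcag
CASP4 (chr11:104968525-104968824, minus strand): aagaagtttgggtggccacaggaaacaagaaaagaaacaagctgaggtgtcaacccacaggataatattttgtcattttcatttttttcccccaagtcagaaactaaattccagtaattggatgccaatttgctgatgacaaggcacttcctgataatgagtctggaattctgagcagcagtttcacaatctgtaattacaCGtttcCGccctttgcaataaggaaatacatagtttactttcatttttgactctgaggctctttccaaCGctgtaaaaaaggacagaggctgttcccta

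The PYCARD window held 23 CG dinucleotides, against 5 in NLRP3, 4 in MEFV and 3 in CASP4; the median of 35114 RefSeq promoter windows was 14, with the middle of the distribution from 4 to 28. TATAAA on the gene's strand was found in the NLRP3 window and in 7.33% of all windows. AGGAAG on either strand, the core that the myeloid factor PU.1 prefers, was found 3 times in PYCARD, once each in NLRP3 and CASP4 and not in MEFV, and in 33.7% of all windows. Neither TGANTCA (AP-1) nor the kappaB consensus, sought on both strands, was found in these 4 windows; they occur in 7.71% and 5.91% of all windows. These are matches of letters, not measured binding sites. RefSeq windows were at hand for 7 of the 10 genes, the others being NLRP1, CASP1 and IL18.

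Among the sensors, NLRP3 was the most abundant in every line and was higher in both monocytic lines. NLRP3 (chromosome 1, 247579458 to 247612406, hg19) senses a wide range of cell stresses, and its transcription is commonly induced by priming. THP-1 at 37.6 RPKM (36.6 to 38.6) and MonoMac-1 at 21.7 RPKM (21.2 to 22.2) stood against HL60 at 4.41 RPKM (4.13 to 4.69) and KG1a at 3.28 RPKM (3.07 to 3.50). The 2 pairs of lines did not overlap: the lower monocytic level, in MonoMac-1, was 4.92 times the higher of the others, in HL60 (interval 4.60 to 5.26). It thus met the 4-fold rule used here, by which the lower RPKM of one pair is at least 4 times the higher RPKM of the other pair. On the log2(RPKM + 1) scale, limma with the line as the unit gave a difference of 2.62 ± 0.45 (SE, adjusted p = 0.257), which misses the threshold of 0.05 against the spread between lines.

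MEFV (chromosome 16, 3292028 to 3306627) encodes pyrin, which is mutated in familial Mediterranean fever. THP-1 at 7.84 RPKM (7.36 to 8.34) and MonoMac-1 at 1.51 RPKM (1.37 to 1.66) stood against HL60 at 0.00553 RPKM (0.000140 to 0.0308) and KG1a at 0.0301 RPKM (0.0119 to 0.0628). The HL60 value rested on 1 fragment equivalent and the KG1a value on 6.75, so MEFV was barely detected outside the monocytic lines. MonoMac-1 was 50.3 times KG1a (interval 23.9 to 128), and THP-1 was 5.19 times MonoMac-1 (4.63 to 5.82). The limma difference was 2.21 ± 0.74 (SE, adjusted p = 0.530), with 1.30 without THP-1, and 4.93 and 7.11 with pseudocounts of 0.1 and 0.01. MEFV met the 4-fold rule on RPKM, but with the fold taken on log2(RPKM + 1), which shrinks low levels, it did not.

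NLRC4 (chromosome 2, 32449518 to 32490812), which works with NAIP proteins to sense bacterial flagellin and secretion systems, was mostly a MonoMac-1 transcript. THP-1 at 1.13 RPKM (0.948 to 1.33) and MonoMac-1 at 8.48 RPKM (8.14 to 8.83) stood against HL60 at 0.625 RPKM (0.513 to 0.754) and KG1a at 0.140 RPKM (0.0947 to 0.200). Both monocytic lines were above both others, yet THP-1 exceeded HL60 by only 1.81 times (1.39 to 2.34) while MonoMac-1 exceeded THP-1 by 7.51 times (6.33 to 8.99). The limma difference was 1.72 ± 0.84 (SE, adjusted p = 0.666), with 0.65 without MonoMac-1 and 2.80 without THP-1.

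NLRP1 (chromosome 17, 5404719 to 5487832), a sensor held in check by the dipeptidyl peptidases DPP8 and DPP9, was low throughout. THP-1 at 0.750 RPKM (0.638 to 0.876) and MonoMac-1 at 0.737 RPKM (0.662 to 0.818) stood against HL60 at 0.0992 RPKM (0.0668 to 0.142) and KG1a at 1.13 RPKM (1.02 to 1.24). The levels of THP-1 and MonoMac-1 did not differ beyond counting error (ratio 1.02, interval 0.838 to 1.23), KG1a was above both, and HL60 was 0.0881 times KG1a (0.0586 to 0.128). AIM2 (chromosome 1, 159032275 to 159046647), a sensor of cytosolic DNA, stayed under 1 RPKM in every line. Its levels were 0.116 (THP-1) and 0.105 (MonoMac-1) RPKM, against 0.0774 (HL60) and 0.0219 (KG1a), on 6, 12.3, 5.66 and 1.99 fragment equivalents. No neighbouring levels of AIM2 could be told apart at this depth.

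**Figure D1:**
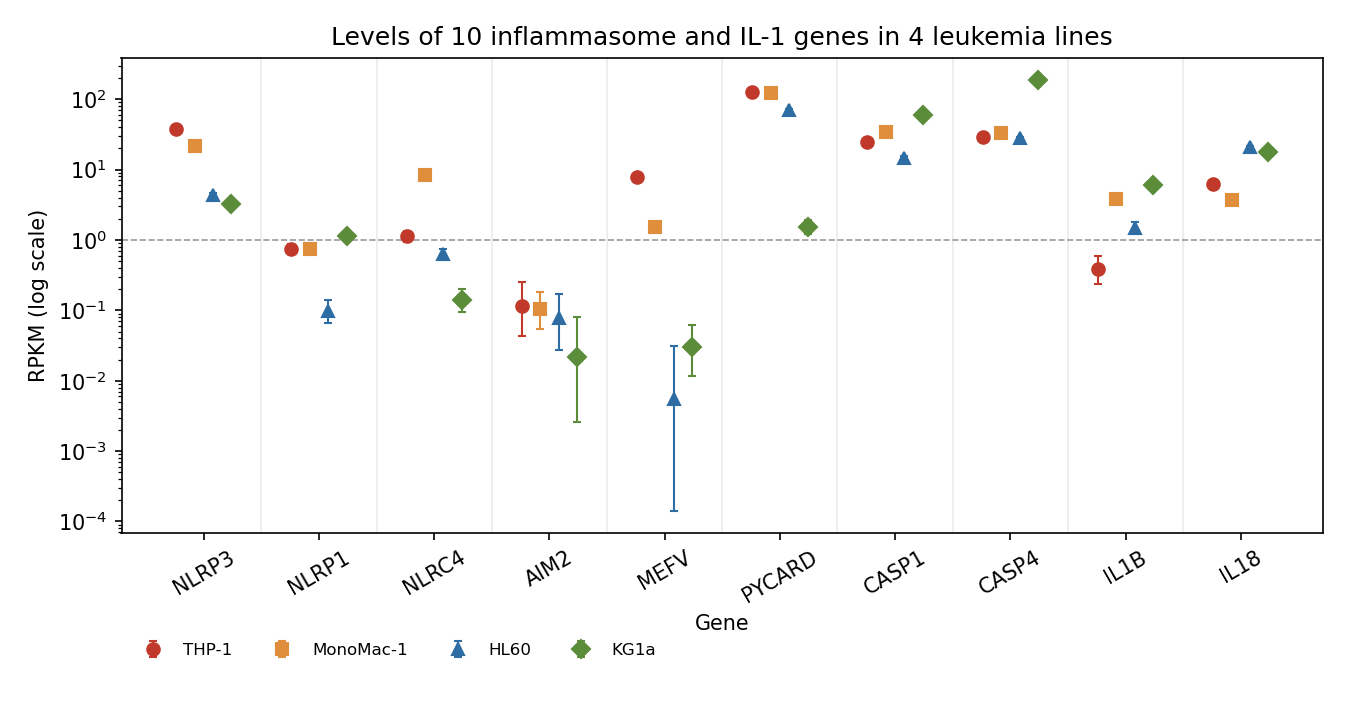
RPKM (log scale) of the 10 genes in THP-1, MonoMac-1, HL60 and KG1a, 1 library each; bars are 95% counting intervals and the dashed line marks 1 RPKM. NLRP3 and MEFV separate the monocytic lines from the others, PYCARD drops to 1.55 RPKM in KG1a, and CASP4 reaches 189.5 RPKM there.

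The adaptor PYCARD (chromosome 16, 31212807 to 31214097), which links the pyrin domain of a sensor to the CARD of caspase-1, was abundant in 3 lines and scarce in KG1a. THP-1 at 128 RPKM (124 to 133) and MonoMac-1 at 122 RPKM (119 to 124) stood against HL60 at 69.4 RPKM (66.8 to 72.1) and KG1a at 1.55 RPKM (1.21 to 1.95). These levels lay above those of 96.8%, 96.0%, 92.7% and 19.6% of the measured genes in the same libraries, in that order. MonoMac-1 exceeded HL60 by 1.75 times (1.68 to 1.83), and HL60 exceeded KG1a by 44.8 times (35.5 to 57.4). Thus both monocytic lines were above both others by a small margin, while the large step lay within the other pair. The limma difference of 3.23 ± 1.55 (SE, adjusted p = 0.661) came to 0.84 without KG1a and 5.63 without HL60.

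Both caspases were present in every line, and both were highest in KG1a, the line with the least PYCARD. CASP1 (chromosome 11, 104896237 to 104905201), the protease that matures IL-1β and IL-18, had its highest level outside the monocytic lines. THP-1 at 24.7 RPKM (23.3 to 26.2) and MonoMac-1 at 34.1 RPKM (33.0 to 35.2) stood against HL60 at 14.6 RPKM (13.6 to 15.5) and KG1a at 60.4 RPKM (58.7 to 62.1). The monocytic lines lay between the other 2, each step of the order exceeded counting error, and the whole range was 4.15-fold (3.87 to 4.45). The limma difference was -0.04 ± 0.72 (SE, adjusted p = 0.990), and it turned to 0.95 without KG1a and 0.18 without THP-1.

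CASP4 (chromosome 11, 104813594 to 104839325), the lipopolysaccharide-binding caspase, was well expressed in all 4 lines and highest in KG1a. It lay above 81.3% (THP-1), 81.9% (MonoMac-1), 80.1% (HL60) and 98.4% (KG1a) of the measured genes in the same libraries. THP-1 at 29.1 RPKM (27.7 to 30.7) and MonoMac-1 at 33.0 RPKM (31.9 to 34.1) stood against HL60 at 28.2 RPKM (27.0 to 29.5) and KG1a at 189.5 RPKM (187 to 192). The other lines were nearly level, and THP-1 and HL60 did not differ beyond counting error (ratio 1.03, interval 0.964 to 1.11). KG1a exceeded the next line, MonoMac-1, by 5.74 times (5.54 to 5.95). In the limma fit the difference was -1.22 ± 0.91 (SE, adjusted p = 0.747), and it turned to 0.13 without KG1a and came to -2.57 without HL60.

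CASP1 and CASP4 lie in a cluster of related genes on chromosome 11, and the neighbours, taken by position, were also highest in KG1a where they were expressed. The 8 entries between the outer ends of CASP12 and CARD18 (104756445 to 105010461, 254 kilobases) were CASP12, LOC643733, CASP4, CASP5, CASP1, CARD16, CARD17 and CARD18. CARD16, a CARD-only protein known to bind caspase-1, had levels of 9.79 (THP-1) and 10.7 (MonoMac-1) RPKM, against 5.52 (HL60) and 67.4 (KG1a). CARD17, another CARD-only protein, had levels of 0.00130 (THP-1) and 0.131 (MonoMac-1) RPKM, against 0.708 (HL60) and 27.6 (KG1a). LOC643733 reached 9.22 RPKM in KG1a and 0.260 in HL60 and was listed at 0 in both monocytic lines. CASP5, which like caspase-4 binds lipopolysaccharide, did not exceed 0.0806 RPKM in any line, CASP12 did not exceed 0.0184, and CARD18 was listed at 0 throughout. KG1a was the highest line for 31% of all measured genes. CARD16 and CARD17 resemble the start of CASP1, so reads may have been split between them by the authors' counting, and these levels are uncertain. The T cell genes noted above were likewise highest in KG1a; their part in the result was not tested.

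**Figure D2:**
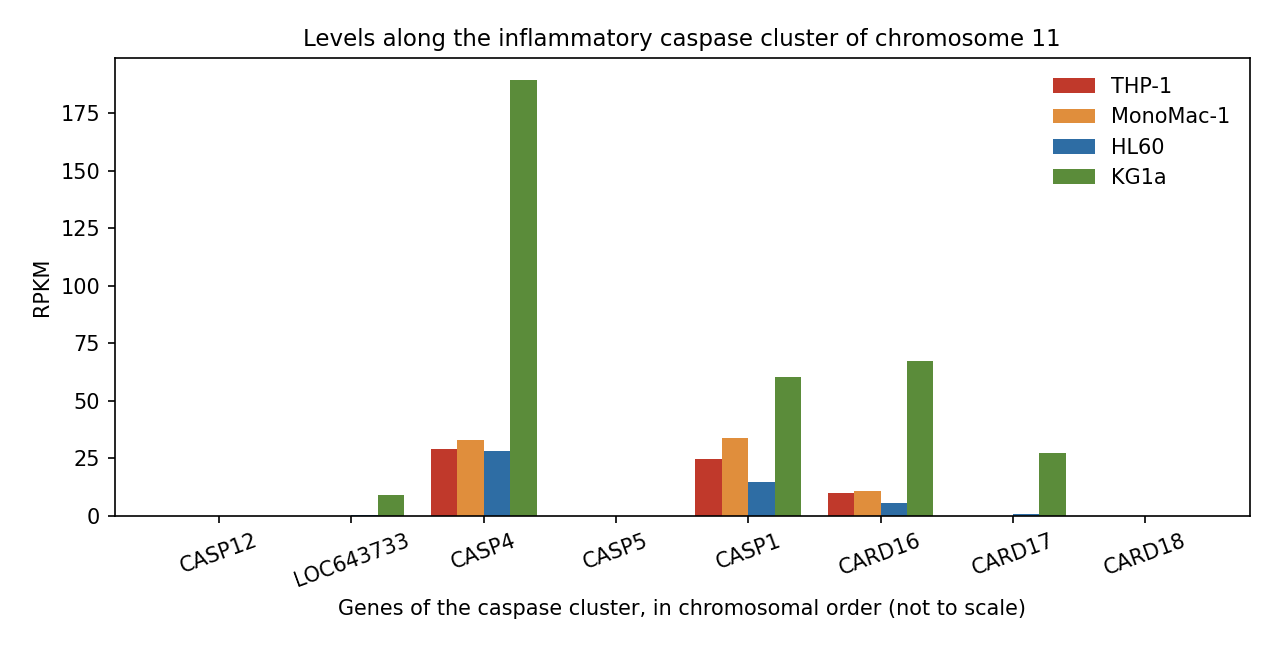
RPKM of the 8 entries of the caspase cluster of chromosome 11 in chromosomal order (spacing not to scale), bars for THP-1, MonoMac-1, HL60 and KG1a, 1 library each. KG1a has the tallest bar for CASP4, CASP1, CARD16, CARD17 and LOC643733, while CASP5, CASP12 and CARD18 are near or at 0 in every line.

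The cytokine genes did not follow NLRP3. IL1B (chromosome 2, 113587337 to 113594356), the precursor of IL-1β, was low in every line. THP-1 at 0.388 RPKM (0.238 to 0.598) and MonoMac-1 at 3.80 RPKM (3.46 to 4.17) stood against HL60 at 1.48 RPKM (1.22 to 1.79) and KG1a at 5.99 RPKM (5.49 to 6.51). It was lowest in THP-1, the line with the most NLRP3, and highest in KG1a, and every step of the order exceeded counting error. MonoMac-1 was 9.80 times THP-1 (6.28 to 16.2), and THP-1 was 0.0648 times KG1a (0.0394 to 0.101). The limma difference was -0.69 ± 0.87 (SE, adjusted p = 0.832), and it turned to 0.06 without KG1a and 0.21 without THP-1.

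IL18 (chromosome 11, 112013976 to 112034840), whose precursor is made constitutively in many cells, was the gene of the 10 that lay lower in both monocytic lines. THP-1 at 6.14 RPKM (5.40 to 6.96) and MonoMac-1 at 3.68 RPKM (3.29 to 4.10) stood against HL60 at 20.8 RPKM (19.6 to 22.0) and KG1a at 17.9 RPKM (16.9 to 18.9). The pairs did not overlap: KG1a, the lower of the others, was 2.91 times THP-1 (2.53 to 3.35). This falls short of 4-fold, and the limma difference of -1.81 ± 0.42 (SE, adjusted p = 0.368) did not pass.

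Set against all genes, 2 of the 9 measured (NLRP3 and MEFV) were at least 4-fold higher in both monocytic lines than in both others. Of the 12976 measured genes (1 RPKM or more in some line) 4.35% were. At least 4-fold lower were 0 of the 9, where 2.21% of all measured genes were. By any margin 4 of the 9 measured were higher (NLRP3, MEFV, NLRC4 and PYCARD), against 22.1% of all measured genes, and 1 was lower (IL18), against 19.6%. MEFV and NLRC4 counted as measured only through the monocytic lines, so these counts are a description. Without HL60 the 4-fold rule held for 4 genes, NLRC4 and PYCARD being added, and CASP4 was then lower; the shares of all measured genes were then 10.4% higher and 6.49% lower. The median of the 9 differences came to 0.19 on the log2(RPKM + 1) scale, against 0.02 over all measured genes. With limma, 0 of the 9 passed after adjustment over all 12976 genes, as did 0% of all genes (lowest adjusted p = 0.0724). At an unadjusted limma p under 0.05 there were 3 (NLRP3, MEFV and IL18), where 5.91% of all genes were higher and 2.64% lower by that mark. The fit had 2 residual degrees of freedom and measures the spread between different lines. The fusion, the monocytic lineage and single lines cannot be told apart in this design. The monocyte markers moved with NLRP3 and MEFV, 5 of the 6 meeting the 4-fold rule, at the sums given above. So did 2 of the 4 granulocyte markers, ELANE and AZU1 (13.6 and 8.79 times between the nearest lines), and PECAM1, an endothelial and leukocyte adhesion molecule, with 17.7 (THP-1) and 34.2 (MonoMac-1) RPKM, against 3.26 (HL60) and 0.00688 (KG1a). The part of these markers in the result was not tested.

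**Figure D3:**
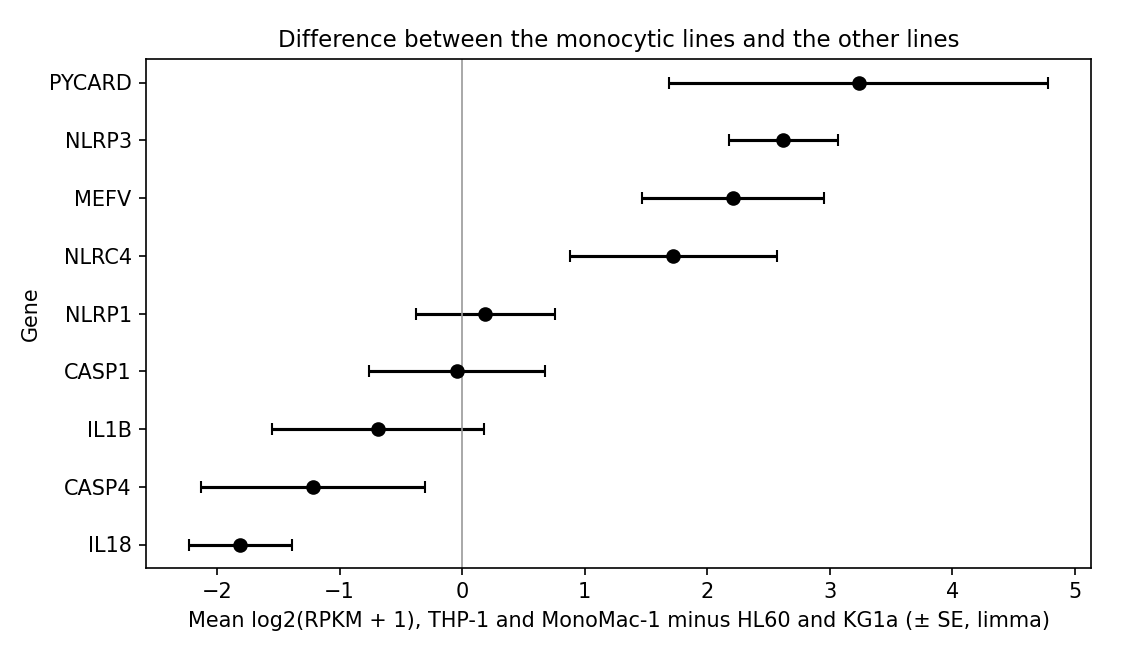
Mean log2(RPKM + 1) of THP-1 and MonoMac-1 minus that of HL60 and KG1a for the 9 measured genes; points are limma estimates and bars their SE, 4 lines with 1 library each. The estimates run from -1.81 for IL18 to 3.23 for PYCARD, and none passed after adjustment.

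Within the monocytic pair the genes differed in both directions. MEFV was at least 4-fold higher in THP-1 than in MonoMac-1 (1 of the 9 measured, and 7.14% of all measured genes). NLRC4 and IL1B were at least 4-fold lower (2 of the 9 measured, and 6.34%). The remaining 7 of the 10, AIM2 included, lay within 1.74-fold of each other, with PYCARD at 1.06 times in THP-1 (1.01 to 1.10). NLRP3 was 1.74 times and IL18 1.67 times (1.41 to 1.98) as abundant in THP-1 as in MonoMac-1. Between HL60 and KG1a the differences were more numerous, as they were for genes at large. PYCARD and NLRC4 were at least 4-fold higher in HL60 (2 of the 9 measured, and 10.7% of all measured genes). NLRC4 was under 1 RPKM in both lines, and its ratio of 4.46 had an interval of 2.95 to 6.91. NLRP1, MEFV, CASP1, CASP4 and IL1B were at least 4-fold lower in HL60 (5 of the 9 measured, and 13.5%). NLRP1 counted as measured only through KG1a (1.13 RPKM, against 0.0992 in HL60), so this count is a description. With the fold taken on log2(RPKM + 1), 1 higher gene (PYCARD) and 1 lower gene (CASP4) were left between HL60 and KG1a, and within the monocytic pair NLRC4 alone was left. MEFV rested on 1 fragment equivalent in HL60 and 6.75 in KG1a, and its ratio of 0.184 had an interval of 0.00406 to 1.45. CASP1 and IL1B lay just past the line, at 0.241 and 0.247 times KG1a.

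A set of KG1a genes was found in HL60 at a small share of the KG1a level, so the 10 were compared with that share. For 22 genes of at least 50 RPKM in KG1a and under 1 RPKM in both monocytic lines, the HL60 level was compared with that of KG1a. It was 2.73% of KG1a at the median and 2.56% at the 10th percentile. For the 10 genes it was 8.81% (NLRP1) or more. MEFV could not be set apart from the share, since its HL60 to KG1a ratio of 0.184 had an interval of 0.00406 to 1.45. After the modal share of 2.66% was taken off, NLRP1 was left at 0.0693 RPKM in HL60, CASP4 at 23.2 and IL1B at 1.32. CARD17 lay at 2.57% and LOC643733 at 2.82%, close to the share.

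**Figure D4:**
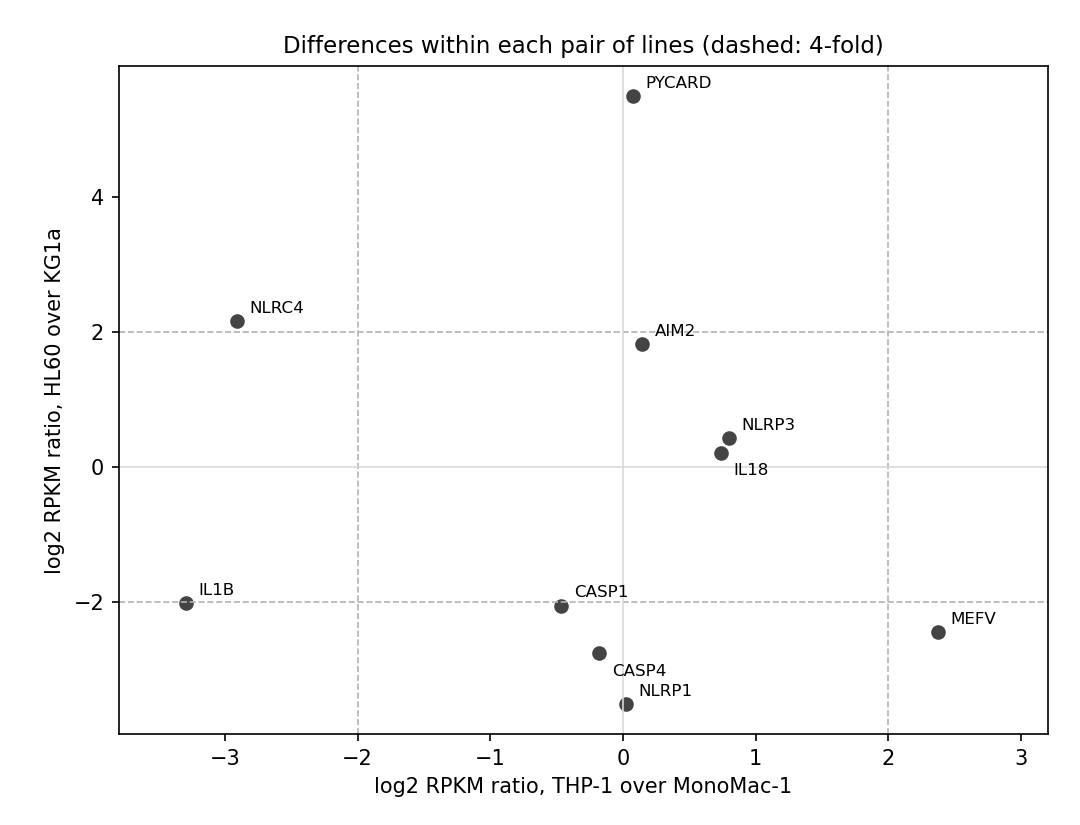
log2 RPKM ratio of THP-1 over MonoMac-1 (horizontal) and of HL60 over KG1a (vertical) for the 10 genes, 1 library per line; dashed lines mark 4-fold. IL1B and NLRC4 lie to the left and MEFV to the right of the dashed lines, and PYCARD lies far above them, at 44.8 times in HL60.

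By the highest line, 3 of the 9 measured genes peaked in THP-1 (NLRP3, MEFV and PYCARD, where 21% of measured genes did), 1 in MonoMac-1 (NLRC4, 24.9%), 1 in HL60 (IL18, 23.1%) and 4 in KG1a (NLRP1, CASP1, CASP4 and IL1B, 31%). NLRP1 counted as measured only through KG1a, and MEFV and NLRC4 only through the monocytic lines, so these counts are a description. The genes did not rank the lines in 1 order. KG1a held the most CASP1, CASP4 and IL1B with the least PYCARD. THP-1 held the most NLRP3 with the least IL1B, and MonoMac-1 the most NLRC4. PYCARD was highest in THP-1 but nearly level with MonoMac-1 (1.06 times, 1.01 to 1.10). At 1 RPKM or more in all 4 lines were 5 of the 9 measured (NLRP3, PYCARD, CASP1, CASP4 and IL18), as were 70.8% of all measured genes.

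The genes nearest in pattern were sought by Euclidean distance between centred log2(RPKM + 1) levels over the 4 lines, among genes of similar mean level. Nearest to NLRP3 were SSH3, CPNE8 and TTC7A (distances 0.19, 0.31 and 0.41, of 8778 candidates). CPNE8, for instance, had levels of 22.0 (THP-1) and 12.2 (MonoMac-1) RPKM, against 3.13 (HL60) and 1.75 (KG1a). ADI1, TSC22D1 and PLEKHA2 were nearest to CASP1 (0.14, 0.14 and 0.15, of 6707). For IL1B they were CASK, FKBP11 and VPS8 (0.26, 0.31 and 0.35, of 7860). The likeness rests on 4 points a gene.

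Genes of the same pathways were then counted in 7 further lists of 101 genes, of which 71 were measured. At least 4-fold higher in both monocytic lines were 3 of the 71 (NOD2, DFNA5 and TLR2; 4.35% of all measured genes), 4 were lower (CARD17, IL18R1, IL18RAP and IL1RL1; 2.21%) and 64 met neither. NOD2 and DFNA5 counted as measured only through the monocytic lines, and the 4 lower genes only through HL60 or KG1a. These counts are therefore a description. Leaving out single lines changed them, to 8 higher without HL60 or without KG1a (10.4% and 8.32% of all measured genes). Without HL60 or without THP-1, 7 were lower (6.49% and 4.61%). By any margin 14 were higher and 19 lower (22.1% and 19.6% of all genes). Limma called 0 after adjustment over all genes. At an unadjusted limma p under 0.05 there were 7, where 5.91% of all measured genes were higher and 2.64% lower by that mark. Among the 12 measured further sensors, 1 was 4-fold higher and 0 lower. NOD2, a sensor of bacterial muramyl dipeptide, had levels of 2.17 (THP-1) and 6.19 (MonoMac-1) RPKM, against 0.0505 (HL60) and 0.161 (KG1a). Among the most abundant was MNDA, a nuclear HIN-200 protein of myeloid cells, with 88.2 (THP-1) and 189 (MonoMac-1) RPKM, against 65.8 (HL60) and 0.0393 (KG1a). IFI16, a DNA sensor of the AIM2 family, reached 6.76 (THP-1) and 8.43 (MonoMac-1) RPKM, against 10.0 (HL60) and 133 (KG1a). CARD8, which like NLRP1 is restrained by DPP9, reached 12.7 (THP-1) and 13.9 (MonoMac-1) RPKM, against 15.8 (HL60) and 44.8 (KG1a). MNDA was the one of these 3 that was higher in both monocytic lines.

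Of 17 measured regulators 0 were 4-fold higher and 1 (CARD17) lower; once the KG1a share was taken off in HL60, CARD17 no longer met the rule. HSP90AA1, a chaperone of NLR proteins, was nearly level at 344 (THP-1) and 372 (MonoMac-1) RPKM, against 312 (HL60) and 361 (KG1a). TXNIP, a thioredoxin-binding protein reported to bind NLRP3, ranged more widely, at 276 (THP-1) and 58.7 (MonoMac-1) RPKM, against 110.3 (HL60) and 31.1 (KG1a). SERPINB1, an inhibitor of neutrophil proteases that also restrains caspase-1, was highest in MonoMac-1, at 31.0 (THP-1) and 173 (MonoMac-1) RPKM, against 37.9 (HL60) and 77.0 (KG1a). Of 7 measured other caspases 0 met the 4-fold rule in either direction. CASP2 had 22.2 (THP-1) and 13.9 (MonoMac-1) RPKM, against 25.7 (HL60) and 17.3 (KG1a). CASP6 had 3.03 (THP-1) and 5.83 (MonoMac-1) RPKM, against 5.55 (HL60) and 17.1 (KG1a).

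Among 5 measured effectors of pyroptosis, the lytic death that follows gasdermin pores, 1 was 4-fold higher and 0 lower. DFNA5 (GSDME), another gasdermin, had levels of 2.17 (THP-1) and 2.08 (MonoMac-1) RPKM, against 0.0275 (HL60) and 0.0600 (KG1a). GSDMD, the gasdermin cut by caspase-1 and caspase-4, was low in HL60 alone, with 28.1 (THP-1) and 30.1 (MonoMac-1) RPKM, against 3.50 (HL60) and 34.4 (KG1a). NINJ1, which ruptures the membrane at the end of pyroptosis, had levels of 17.4 (THP-1) and 14.4 (MonoMac-1) RPKM, against 38.9 (HL60) and 3.26 (KG1a). GSDMB reached 5.12 RPKM in HL60.

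Of 9 further IL-1 family ligands 2 were measured, and neither met the 4-fold rule. IL1RN, the receptor antagonist that blocks IL-1, had levels of 9.48 (THP-1) and 9.53 (MonoMac-1) RPKM, against 0.307 (HL60) and 5.42 (KG1a). In THP-1 and MonoMac-1 it lay above IL1B and in HL60 below it; in KG1a the intervals of IL1RN (5.02 to 5.84) and IL1B (5.49 to 6.51) overlapped. IL1F6 (IL36A) reached 2.07 RPKM in KG1a, and IL1A was at or below 0.155 in all lines. Among 7 measured receptor genes 0 were 4-fold higher and 3 lower (4.35% and 2.21% of all measured genes). The 3 were at low levels and neighbours on chromosome 2. They reached 1 RPKM only in HL60 or KG1a, and the filter at 5 RPKM left none of them. IL18R1, which binds IL-18, had levels of 0.0326 (THP-1) and 0 (MonoMac-1) RPKM, against 1.46 (HL60) and 0.971 (KG1a). IL18RAP, its accessory chain, had levels of 0.0962 (THP-1) and 0.00935 (MonoMac-1) RPKM, against 0.549 (HL60) and 3.82 (KG1a). IL1RL1, the IL-33 receptor, had levels of 0 (THP-1) and 0.00369 (MonoMac-1) RPKM, against 1.25 (HL60) and 0.0412 (KG1a). SIGIRR, an inhibitory member, had levels of 8.63 (THP-1) and 13.8 (MonoMac-1) RPKM, against 8.83 (HL60) and 28.2 (KG1a). IL1RAP, the shared accessory chain of IL-1 receptors, had levels of 6.16 (THP-1) and 8.56 (MonoMac-1) RPKM, against 9.78 (HL60) and 4.09 (KG1a).

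All 21 genes of priming signalling were measured, 1 of them 4-fold higher and 0 lower. This was TLR2, a receptor of bacterial lipoproteins, with 33.7 (THP-1) and 37.2 (MonoMac-1) RPKM, against 2.93 (HL60) and 0 (KG1a). IRAK1, a kinase downstream of Toll-like and IL-1 receptors, had levels of 70.5 (THP-1) and 74.4 (MonoMac-1) RPKM, against 114 (HL60) and 60.4 (KG1a). RELA, the NF-κB subunit p65, had levels of 27.9 (THP-1) and 26.5 (MonoMac-1) RPKM, against 33.0 (HL60) and 62.2 (KG1a). The list's median difference of 0.07 lay close to the 0.02 of all measured genes.

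**Figure D5:**
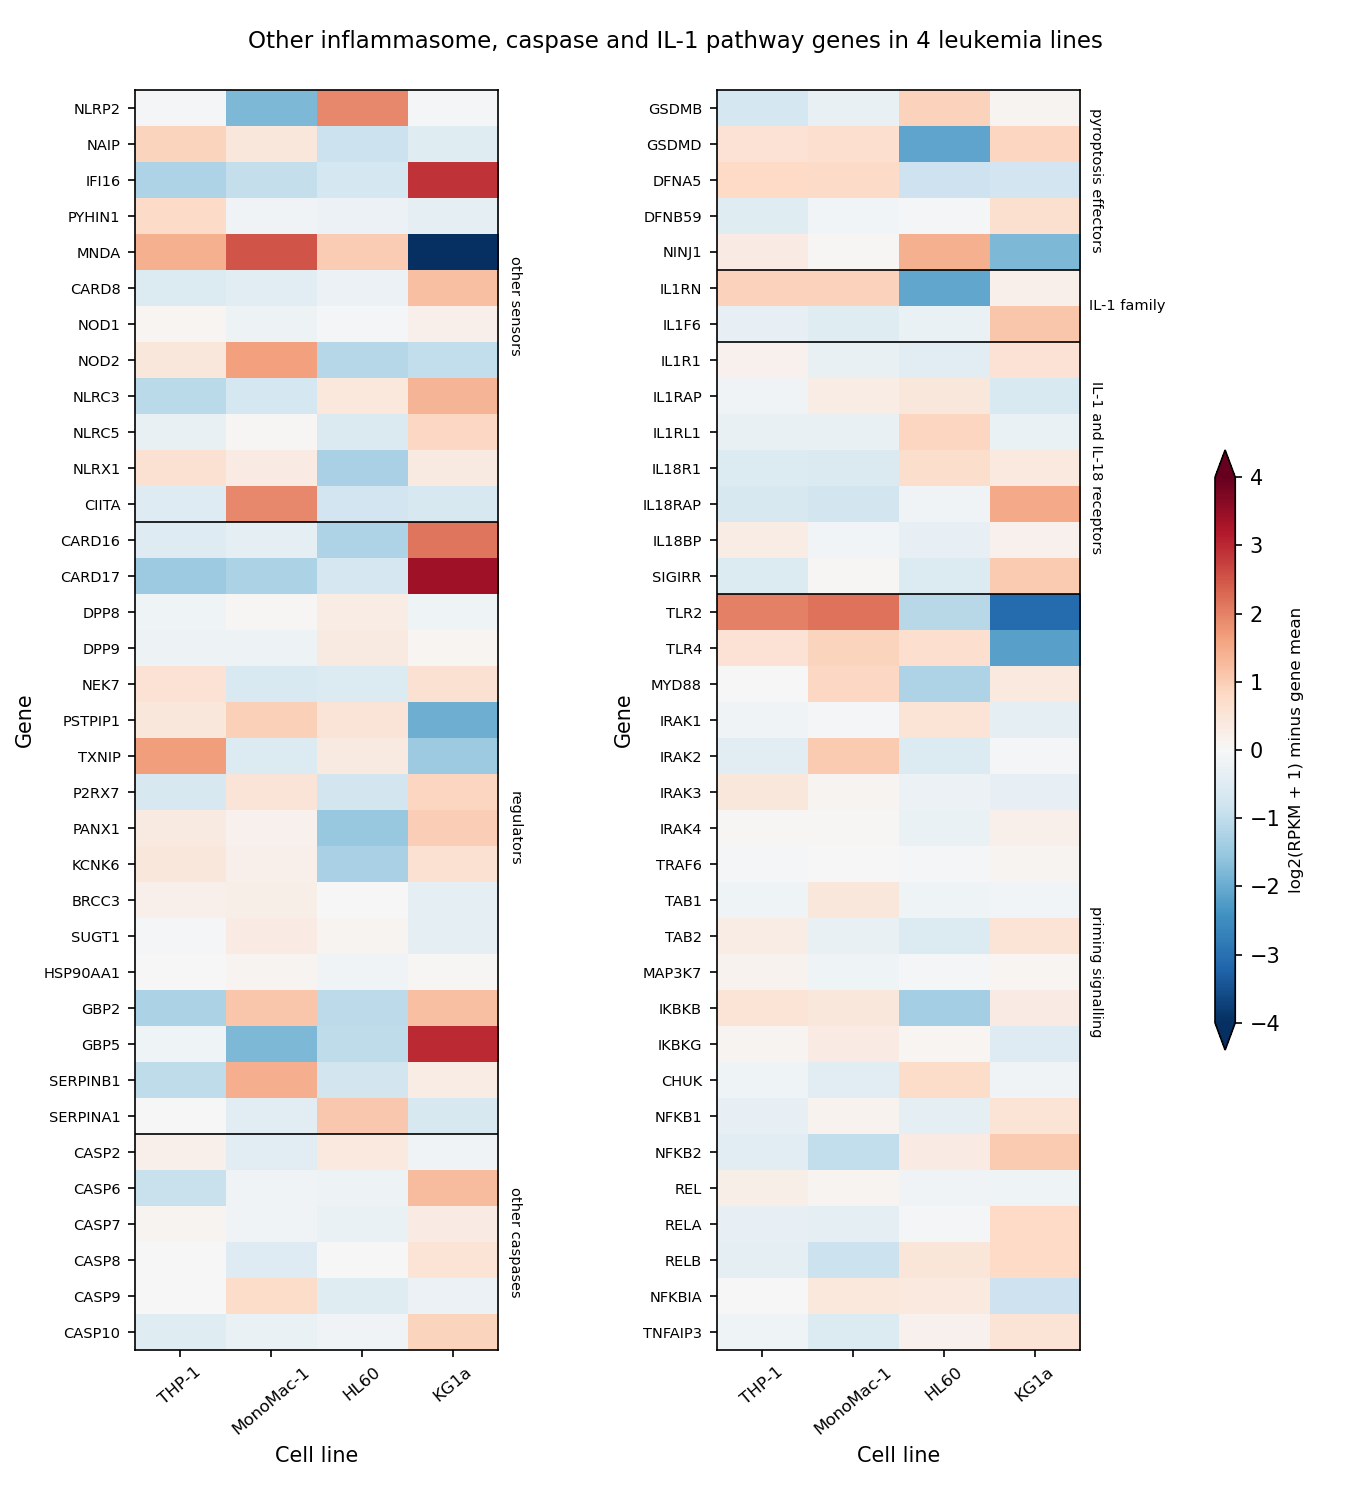
log2(RPKM + 1) minus the gene's mean over the 4 lines for measured genes of the 7 further lists, 1 library per line; red is above the mean, blue below, and colours end at 4 in either direction. The strongest colours are those of MNDA and TLR2, low in KG1a, and of CARD17, GBP5 and IFI16, high in KG1a.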

How the data were processed

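RNA was sequenced from 4 leukemia lines, 1 library each. RNA came from TRIzol extraction, per the labels' protocols. CASAVA 1.8.2 and hg19 appear in the submitters' processing notes. For aligner, annotation and strand handling: not given in the sources used here. Deposited by the authors were, per gene, an RPKM value and a whole-number coverage signal with no stated unit, read here as bases on the gene, since its commonest low value was 200 (reads of 100 bases inferred). In MonoMac-1 only 11.0% of low values were multiples of 100 (43.3% to 48.8% in the others), so its reads look trimmed. Bases divided by 200 gave the fragment equivalents behind all intervals.

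For 28 repeated symbols the entry with the highest mean was kept. RPKM was analysed as such and as log2(RPKM + 1), with limma 3.58.1 (R 4.3.3; trend, two-sided, Benjamini-Hochberg over all measured genes), checked on simulated data, and Python 3.11.15. No test was made for single lines. Alternatives were other scalings, filters, pseudocounts and fold limits, removal of a KG1a share from HL60, and leaving out each line. The genes and lists were chosen with earlier results of these data known. Named from the lists were genes past the 4-fold rule and the 3 most abundant; genes of the caspase cluster were taken by position. One gene of the lists is counted but its values are not reported here.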

Additional observations from a re-analysis of the deposited data

How the results depend on the processing

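No paired analysis was possible because each line has 1 library and the labels give no replicate numbers. NLRP3 and MEFV remained the genes at least 4-fold higher under median-of-ratios scaling, quantile normalization, no filter, a filter at 5 RPKM and removal of the KG1a share. An 8-fold rule left 1 (MEFV), the fold on log2(RPKM + 1), chosen after seeing the data, left 1 (NLRP3), and a 2-fold rule added 1 lower gene (IL18). Leaving out each line gave 2 to 4 higher (NLRC4 and PYCARD joined without HL60, NLRC4 without THP-1) and 0 to 1 lower (CASP4 without HL60, IL18 without THP-1), where 6.08% to 10.4% of all measured genes were higher and 2.13% to 6.49% lower. For the further lists, leaving out each line gave 4 to 8 higher and 3 to 7 lower, against the same shares of all genes; the log2(RPKM + 1) fold left 1 higher and 0 lower, the filter at 5 RPKM 1 lower and the 8-fold rule 2 lower. On log2(RPKM + 1), THP-1 against MonoMac-1 held 0 genes 4-fold higher and 1 lower, and HL60 against KG1a 1 higher and 1 lower; with a pseudocount of 0.1 HL60 against KG1a held 1 higher and 3 lower.

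Limma called 0 of the genes under all alternatives, leave-one-out included (0 to 0); with the filter at 5 RPKM it called 11 genes in all against 0. Without KG1a the differences of CASP4 and IL1B turned to 0.13 and 0.06, and that of CASP1 to 0.95; without THP-1 those of IL1B and CASP1 turned to 0.21 and 0.18, and without HL60 that of NLRP1 to -0.29. Over the lines left out in turn they ranged from -2.57 to 0.13 (CASP4), -1.58 to 0.21 (IL1B), -1.03 to 0.95 (CASP1) and -0.29 to 0.19 (NLRP1). Removal of the KG1a share turned CASP1 to 0.033 (10th percentile) and 0.036 (mode). The cause was not tested. Depth limits AIM2 and MEFV in HL60 and KG1a.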
